A study of Mus musculus with 11 samples.

Results

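The genes described here are 8 of the 32285 genes in the count matrices. They are Yap1 and Wwtr1, the transcriptional co-activators YAP and TAZ, their DNA-binding partner Tead1, and the target genes Ccn1, Ccn2, Ankrd1, Amotl2 and Lats2. They were chosen by a measured value, the lower level of Ccn2 in endothelial cells of Lrg1-/- than of WT mice after ischemia, and the other 7 were added as genes of the same pathway. The difference between Lrg1-/- and WT mice after ischemia is therefore given as a description without a test. Raw counts of distinct transcript molecules (UMIs) were summed per mouse in endothelial cells, pericytes, smooth muscle cells and astrocytes, and levels are given as CPM, the UMIs of a gene per 1000000 UMIs of the summed cells.

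The libraries were single-cell RNA sequencing libraries of right brain tissue, 1 mouse each, from 4 groups of mice. WT mice were male C57BL/6 mice of 8 to 10 weeks that had a sham operation (sham + WT, n = 3) or a temporary occlusion of the middle cerebral artery with reperfusion (MCAO/R + WT, n = 2). Lrg1-/- mice, aged 3 months, carried a conventional knockout on a C57BL/6N background (C57BL/6N-Lrg1em1cyagen), so that every cell type lacked the gene, and had the sham operation (sham + Lrg1-/-, n = 3) or the occlusion (MCAO/R + Lrg1-/-, n = 3). Lrg1 encodes a secreted glycoprotein known as a modifier of TGF-beta signaling. The sources used here give no sex for the Lrg1-/- mice. Genotype, age and source of the mice differed together between WT and Lrg1-/- mice and cannot be told apart here. The same holds for sex if it differed. Xist, an RNA of female cells, was among the 10 leading genes of 1 endothelial sub-cluster of 1897 cells. Of these cells, 814 came from MCAO/R + Lrg1-/- replicate 2 and 150 and 279 from the MCAO/R + WT libraries. Xist was not compared between libraries, and the part of sex in the differences was not tested.

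YAP and TAZ carry no DNA-binding domain. In the nucleus they bind TEAD factors such as Tead1 and switch on target genes. The Hippo kinases, among them Lats2, phosphorylate both proteins and hold them in the cytoplasm, and Amotl2, an angiomotin that sits at cell junctions, binds and retains them as well. Lats2 and Amotl2 are themselves targets, which makes them inhibitors in a feedback loop. Ccn1 and Ccn2 encode secreted matricellular proteins that act on cell adhesion and matrix production, and Ankrd1 encodes an ankyrin repeat protein of muscle and endothelium. In blood vessels the pathway is known to respond to mechanical load and to take part in vessel sprouting and in maturation of the blood–brain barrier. Phosphorylation and nuclear entry of YAP and TAZ, which set their activity, are not read by RNA sequencing.

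TEAD factors bind the core letters GGAATG, or CATTCC on the other strand, so the promoters show where such letters lie in the genes compared below. In the 250 bases before the transcription start (RefSeq, GRCm38.p6), 5 of the 6 members with a window held at least 1 copy, against 12.6% of 32851 windows of the same length. No window was available for Ccn2 and Tead1, so their promoters were not searched. The 3 target genes with a copy are printed first and the 2 co-activators after them, each read 5′ to 3′ on the gene's strand, with the core letters in capitals.

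Ccn1 chr3:145649986-145650235 (minus strand): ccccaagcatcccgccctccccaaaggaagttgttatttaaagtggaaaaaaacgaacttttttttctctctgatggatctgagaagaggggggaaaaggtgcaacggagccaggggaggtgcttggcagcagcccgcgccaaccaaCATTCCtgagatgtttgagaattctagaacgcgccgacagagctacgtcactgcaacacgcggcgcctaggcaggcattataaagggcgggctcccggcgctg
Ankrd1 chr19:36119845-36120094 (minus strand): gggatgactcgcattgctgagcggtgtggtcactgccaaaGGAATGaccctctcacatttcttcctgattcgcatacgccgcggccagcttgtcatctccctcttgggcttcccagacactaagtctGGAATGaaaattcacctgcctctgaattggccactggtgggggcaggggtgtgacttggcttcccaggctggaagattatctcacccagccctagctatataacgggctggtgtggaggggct
Amotl2 chr9:102717554-102717803 (plus strand): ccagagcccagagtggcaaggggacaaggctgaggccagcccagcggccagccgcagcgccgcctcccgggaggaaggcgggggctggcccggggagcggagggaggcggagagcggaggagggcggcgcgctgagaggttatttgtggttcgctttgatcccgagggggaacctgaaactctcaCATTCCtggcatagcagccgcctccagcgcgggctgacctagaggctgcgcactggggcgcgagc
Yap1 chr9:8004597-8004846 (minus strand): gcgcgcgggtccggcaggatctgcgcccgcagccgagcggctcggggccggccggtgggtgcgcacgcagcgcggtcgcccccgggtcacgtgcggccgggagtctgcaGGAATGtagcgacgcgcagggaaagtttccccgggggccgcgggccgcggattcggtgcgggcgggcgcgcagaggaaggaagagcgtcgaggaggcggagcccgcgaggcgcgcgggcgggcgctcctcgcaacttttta
Wwtr1 chr3:57575911-57576160 (minus strand): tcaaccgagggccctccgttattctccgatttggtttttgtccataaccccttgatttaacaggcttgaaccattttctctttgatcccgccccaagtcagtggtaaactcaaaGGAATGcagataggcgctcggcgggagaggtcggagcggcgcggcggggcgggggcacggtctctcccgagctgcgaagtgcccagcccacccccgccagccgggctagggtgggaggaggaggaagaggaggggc

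The copy in Ccn1 began 103 bases before the transcription start, that in Amotl2 65 bases, that in Yap1 141 bases and that in Wwtr1 136 bases, and Ankrd1 had copies at 210 and 123 bases. Neither of the 2 windows of Lats2 held the letters. These are matches of letters, and binding of a TEAD factor was not measured.

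In the GENCODE M21 annotation of GRCm38, Ccn2 (ENSMUSG00000019997) lies at chr10:24595442-24598683 on the plus strand and Ccn1 (ENSMUSG00000028195) at chr3:145646976-145649981 on the minus strand. Both are short genes, of 3.242 kb and 3.006 kb. Ankrd1 spans 8.139 kb and Amotl2 16.747 kb, whereas Lats2 (68.727 kb), Yap1 (72.598 kb), Wwtr1 (120.262 kb) and Tead1 (227.49 kb) are long.

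Each library held 37159497 to 171813031 UMIs, and 132437 of 155804 cell barcodes passed the filters on genes, UMIs and mitochondrial content. Pairs of libraries shared at most 1.15% of their barcodes. Kept cells had medians of 3190 to 7911 UMIs in Lrg1-/- and 6064 to 11504 UMIs in WT libraries. The lowest UMI count of a deposited barcode was 500 in every WT library and 500 to 770 in the Lrg1-/- libraries. The part of these lower limits in the differences between genotypes was not tested. Lrg1 itself had 0 UMIs in the endothelial cells of all 6 Lrg1-/- libraries, which allows at most 3 counts per library, against 7.72 to 25.4 CPM in the sham + WT libraries and 429 and 530 CPM in the MCAO/R + WT libraries. The Lrg1-/- libraries stood apart in hemoglobin transcripts, which took 3.44% to 8.99% of their UMIs against 0.0227% to 0.0406% in WT libraries, and in Ttr of the choroid plexus. The marker lists of pericytes and smooth muscle cells were the highest of 8 lists in the cells named for them. The 9 endothelial markers summed to 14651 to 22167 CPM in endothelial cells, but the 6 erythroid markers summed higher in 5 of the 6 Lrg1-/- libraries. Astrocytes of Lrg1-/- libraries went against their name. Their 9 astrocyte markers summed to 4878 to 9311 CPM, against 15577 to 18502 CPM in WT libraries, and lay below the 6 erythroid markers in every Lrg1-/- library (16466 to 51606 CPM) and below the 7 choroid plexus markers in 3 of the 6. Every astrocyte value that involves Lrg1-/- mice below rests on these sums.

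The members differed in where they were found. Over all libraries with at least 20 cells of a type, the median level of Ccn2 was highest in smooth muscle cells (224 CPM), followed by fibroblasts (187 CPM), pericytes (64.9 CPM) and endothelial cells (46.6 CPM), and it was at most 10.9 CPM in the other 12 cell types. Ranges over libraries overlapped between all neighbors in this order, so that none of these steps was larger than the spread. Only 6 libraries held enough pericytes, none of them sham + Lrg1-/-, and the order depended on the group. Ccn2 was higher in pericytes (67.1 to 96.2 CPM) than in endothelial cells (37.3 to 46.6 CPM) of sham + WT libraries, but lower in MCAO/R + WT libraries (49.5 and 62.8 against 357 and 411 CPM). Ccn1 had its highest median in endothelial cells (495 CPM, range 322 to 795), ahead of smooth muscle cells (369 CPM, range 147 to 880) with overlapping ranges. Wwtr1 was also highest in endothelial cells (446 CPM, range 383 to 690), and its range overlapped that of ependymal cells (325 CPM, range 156 to 486).

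Yap1, Amotl2 and Lats2 had their highest medians in pericytes, at 120, 205 and 151 CPM, where 5 of the 6 libraries were WT. For Amotl2 and Lats2 pericytes lay above endothelial cells in both WT groups, with no overlap, whereas for Yap1 they did so in sham + WT (123 to 151 against 96.2 to 118 CPM) and lay below in MCAO/R + WT (83.3 and 116 against 125 and 152 CPM). Tead1 differed from the other members in that neuroblasts (522 CPM, range 378 to 683) and astrocytes (222 CPM, range 141 to 413) led. Microglia were low in Yap1 (3.15 CPM) and Tead1 (5.48 CPM) but held 49.4 CPM of Lats2. Ankrd1 was at a median of 0 CPM in all 16 cell types and never above 0.871 CPM. It gave 10 UMIs in endothelial cells and 4 in smooth muscle cells over all 11 libraries, and 0 in pericytes and astrocytes, where 3 UMIs over all libraries would have given 0.388 and 0.131 CPM. It passed the count filter in none of the 4 cell types, so that 7 of the 8 members were measured in each of them.

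**Figure D1:**
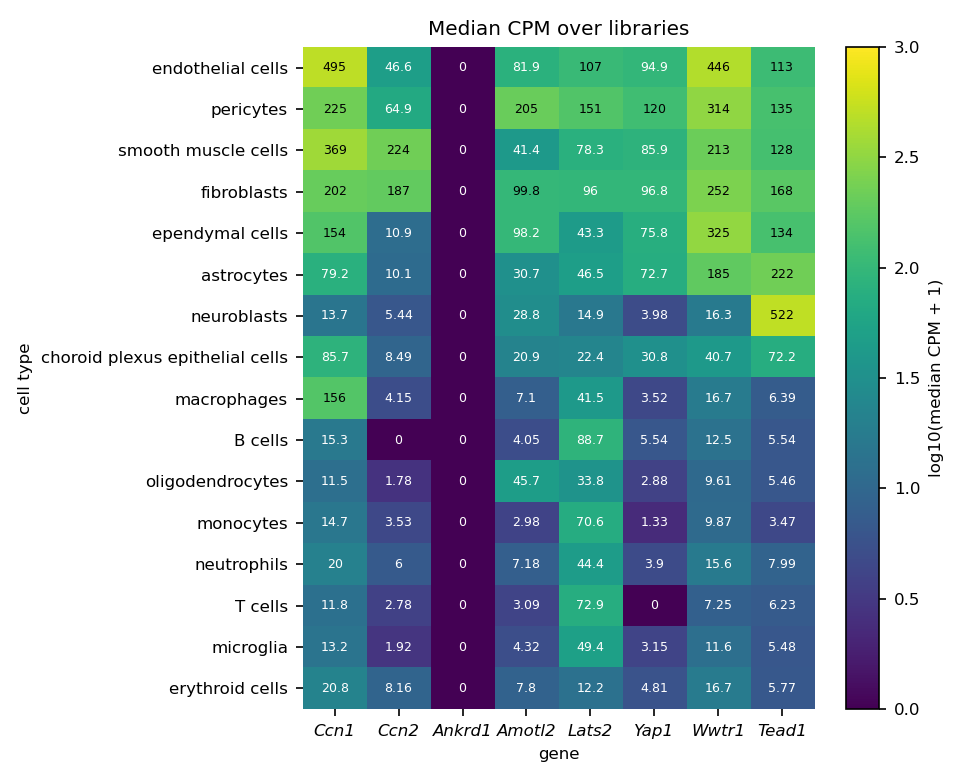
Median CPM of each member (columns) over the libraries with at least 20 cells of a cell type (rows), with color on a log10(median CPM + 1) scale and the median printed in each cell. Levels are meant to be read down a column: Ccn2 reached 224 CPM in smooth muscle cells and 46.6 CPM in endothelial cells, and Ankrd1 was at 0 throughout.

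After the sham operation, 4 of the 7 measured members were lower in endothelial cells of Lrg1-/- mice than in those of WT mice and none was higher. They were both co-activators, Yap1 and Wwtr1, their partner Tead1, and the target Ccn2. Over all 16640 genes tested in endothelial cells, 16.7% were called in this comparison. To be called, a gene needed an adjusted p (Benjamini–Hochberg, over all genes) under 0.05 in edgeR's quasi-likelihood test and a natural-log fold change of more than 0.25 in either direction. These sham libraries did not enter the comparison that chose the members.

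Wwtr1 measured 660, 642 and 686 CPM in the sham + WT libraries and 383, 382 and 408 CPM in the sham + Lrg1-/- libraries. The groups did not overlap, and Wwtr1 fell by 0.76 on the log2 scale (SE 0.10, edgeR adjusted p = 0.000639). Tead1 stood at 149, 184 and 181 CPM against 98.7, 92.1 and 96.2 CPM and fell by 0.84 (SE 0.12, edgeR adjusted p = 0.000952). Yap1 stood at 119, 95.8 and 98.6 CPM against 66.7, 61.5 and 61.8 CPM and fell by 0.72 (SE 0.12, edgeR adjusted p = 0.00247). In all 3 genes every Lrg1-/- library lay below every WT library.

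Ccn2 was at 46.7, 37.2 and 44.5 CPM in the sham + WT libraries and at 19.5, 25.5 and 31.9 CPM in the sham + Lrg1-/- libraries. Again the groups did not overlap, and Ccn2 fell by 0.76 on the log2 scale (SE 0.17, edgeR adjusted p = 0.0103). Its close relative Ccn1 averaged 742 ± 74.8 CPM (SD, n = 3) against 501 ± 158 CPM (SD, n = 3), with a log2 difference of −0.57 (SE 0.21) that missed the threshold (edgeR adjusted p = 0.0871), and 1 Lrg1-/- library lay inside the WT range. The feedback inhibitors gave smaller values, −0.21 for Lats2 (SE 0.09, edgeR adjusted p = 0.130) and −0.06 for Amotl2 (SE 0.14, edgeR adjusted p = 0.817).

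**Figure D2:**
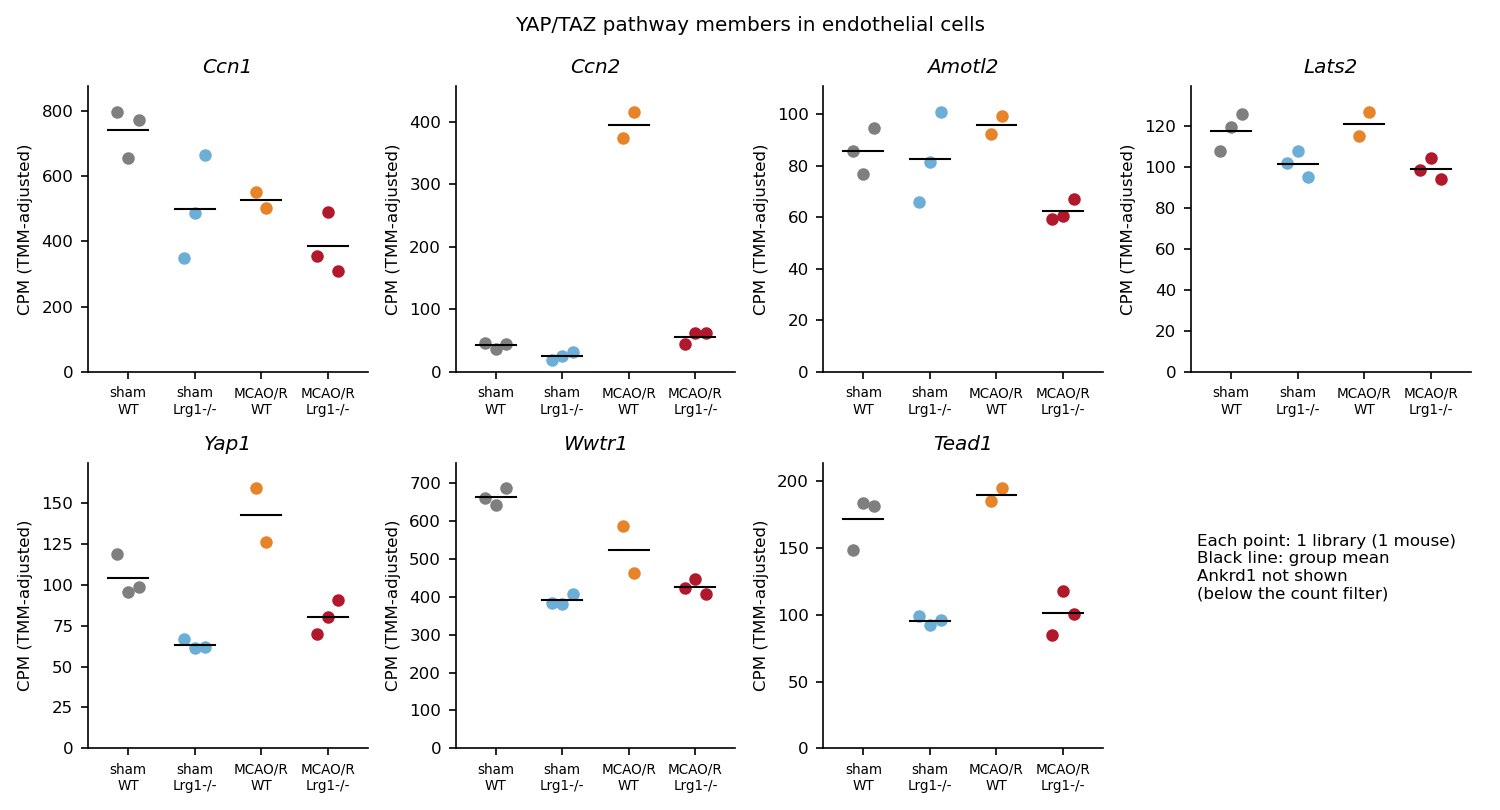
CPM of the 7 measured members in endothelial cells, 1 panel per gene with its own vertical axis from 0, 1 point per library (1 mouse) and a black line at the group mean. Ccn2 stands out in MCAO/R + WT (374 and 416 CPM, against 61.9 CPM or less in every other group), and Yap1, Wwtr1 and Tead1 lie lower in both Lrg1-/- groups than in sham + WT.

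Gene length moved with genotype in the same cells. The median log2 difference over all endothelial genes was 0.15 for genes of up to 10 kb, 0.03 for 10 to 50 kb, −0.14 for 50 to 100 kb and −0.23 above 100 kb, and Wwtr1 and Tead1 belong to the last class and Yap1 and Lats2 to the third. Genes longer than 100 kb took 20.3% to 21.6% of endothelial UMIs in sham + WT and 14.8% to 16.8% in sham + Lrg1-/- libraries. The lower quartile was −0.51 above 100 kb, −0.39 for 50 to 100 kb and −0.14 for up to 10 kb. Wwtr1, Tead1 and Yap1 lay below the lower quartile of their class, and Lats2 did not. Ccn2 and Ccn1 belong to the shortest class. The part of gene length in the decreases was not tested. RNA of other cells moved with genotype too. Summed over 6 erythroid markers, endothelial cells held 987 to 1466 CPM in sham + WT and 18195 to 29077 CPM in sham + Lrg1-/- libraries, and the 7 choroid plexus markers, all of them detected, held 266 to 562 against 5370 to 7649 CPM. All 8 smooth muscle markers (159 to 174 against 360 to 642 CPM) and all 9 pericyte markers (123 to 160 against 242 to 346 CPM) were also detected in every library and higher in the Lrg1-/- libraries. Ccn2 itself was higher in smooth muscle cells (180 to 254 CPM) and pericytes (66.9 to 97.7 CPM) than in endothelial cells of the sham + WT libraries. The part of this RNA in the differences was not tested.

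The decreases of the 3 long genes were smaller when every cell was thinned to 1000 UMIs, at −0.49 for Yap1 and −0.48 for Tead1, whose calls were lost (edgeR adjusted p = 0.0763 and 0.0993), and −0.45 for Wwtr1 (edgeR adjusted p = 0.0460). That of Ccn2 was larger there (−1.12, edgeR adjusted p = 0.00521), and its call was lost when cells were clustered without balancing the neighbors over mice (−0.62, edgeR adjusted p = 0.0541). No call of the 4 was lost when any 1 library was left out, where the highest edgeR adjusted p was 0.0449, for Ccn2.

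In smooth muscle cells, 3 of the 7 measured members were called after sham, against 11.0% of 11804 genes, and all 3 were lower in Lrg1-/- mice. Ccn1 measured 331, 368 and 475 CPM in sham + WT and 147, 206 and 216 CPM in sham + Lrg1-/- libraries and fell by 1.06 on the log2 scale (SE 0.26, edgeR adjusted p = 0.0160). Wwtr1 averaged 240 ± 20.02 against 155 ± 19.2 CPM (SD, n = 3 each) and fell by 0.63 (SE 0.14, edgeR adjusted p = 0.00842). Yap1 averaged 89.2 ± 4.17 against 62.1 ± 2.58 CPM (SD, n = 3 each) and fell by 0.53 (SE 0.13, edgeR adjusted p = 0.0160). The groups of libraries did not overlap in any of the 3 genes. Ccn2, by contrast, was at 180, 223 and 254 CPM against 180, 205 and 163 CPM, which overlapped (log2 difference −0.26, SE 0.30, edgeR adjusted p = 0.661).

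The decreases in smooth muscle cells kept their size when any 1 library was left out, at −1.16 to −0.90 for Ccn1, −0.74 to −0.54 for Wwtr1 and −0.55 to −0.49 for Yap1, while their calls were often lost. Ccn1 was not called without sham + WT replicate 3 (edgeR adjusted p = 0.0827), sham + Lrg1-/- replicate 1 (0.0671) or replicate 2 (0.0506), and Wwtr1 was not called without sham + Lrg1-/- replicate 2 (edgeR adjusted p = 0.0576). Yap1 was not called without sham + WT replicate 2 (edgeR adjusted p = 0.0510) or replicate 3 (0.0734), or sham + Lrg1-/- replicate 1 (0.0572) or replicate 2 (0.0706). With the replicate number as a block all 3 calls were lost (edgeR adjusted p = 0.212 for Ccn1, 0.0902 for Wwtr1 and 0.102 for Yap1), and with thinned cells the differences of Wwtr1 and Yap1 shrank to −0.36 and −0.35 and were not called (edgeR adjusted p = 0.600 and 0.680). The length classes differed as in endothelial cells, with a median log2 difference of 0.15 for genes of up to 10 kb and −0.22 above 100 kb. RNA of other cells moved with genotype here as well. The erythroid markers summed to 15.2 to 55.0 CPM in smooth muscle cells of sham + WT and 11905 to 18907 CPM in those of sham + Lrg1-/- libraries, the choroid plexus markers to 302 to 501 against 5865 to 13255 CPM, and the endothelial markers to 324 to 404 against 658 to 1168 CPM. The part of gene length and of this RNA in the 3 decreases was not tested.

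Astrocytes gave 0 calls among the 7 measured members in this comparison, by edgeR and by DESeq2, and 0 at an unadjusted p below 0.05, where 4.64% of 11462 genes were called. Ccn2 was low and variable there, at 1.27, 2.12 and 12.2 CPM in sham + WT and 2.50, 8.0 and 30.5 CPM in sham + Lrg1-/- libraries. Pericytes could not be compared between genotypes after sham, because the sham + Lrg1-/- libraries held only 7 to 14 of them.

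After MCAO/R, Ccn2 was the member with the largest difference from sham in WT endothelial cells. It measured 374 and 416 CPM in the MCAO/R + WT libraries, against 37.2 to 46.7 CPM in the sham + WT libraries, a log2 difference of 3.20 (SE 0.18) or 9.22-fold. In Lrg1-/- mice it measured 44.3, 61.3 and 61.9 CPM after MCAO/R against 19.5 to 31.9 CPM after sham, a log2 difference of 1.15 (SE 0.18) or 2.22-fold. Neither is given a test, because the MCAO/R libraries chose Ccn2. In both genotypes the MCAO/R libraries lay above all sham libraries, and the MCAO/R + Lrg1-/- levels were closer to those of sham + WT (mean 42.8 ± 4.99 CPM, SD, n = 3) than to those of MCAO/R + WT (mean 395 ± 29.5 CPM, SD, n = 2).

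**Figure D3:**
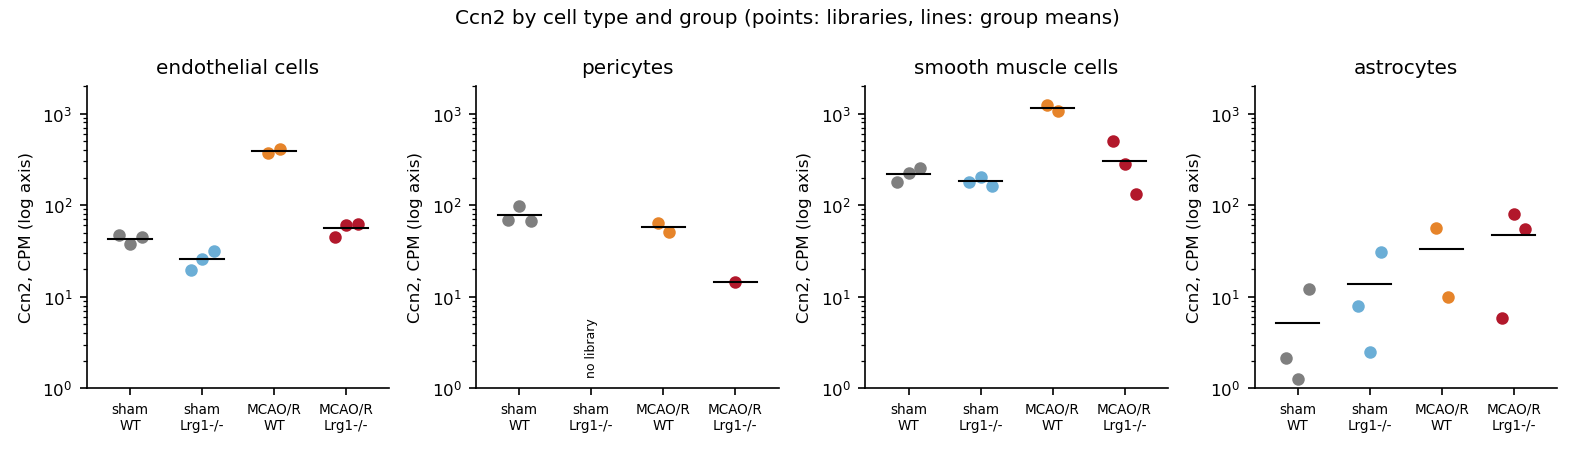
CPM of Ccn2 on a log axis in the 4 cell types, 1 point per library with at least 20 cells of the type and a line at the group mean. The MCAO/R + WT libraries lie above the others in endothelial cells (374 and 416 CPM) and smooth muscle cells (1065 and 1241 CPM), but not in pericytes (50.5 and 63.9 CPM) or astrocytes, and no sham + Lrg1-/- library held enough pericytes.

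In WT endothelial cells, 1 of the 6 members tested was called after MCAO/R (against 18.7% of all genes), Yap1, which rose by 0.45 on the log2 scale (SE 0.13, edgeR adjusted p = 0.0341) from 95.8 to 119 CPM in the sham + WT libraries to 126 and 159 CPM. This call was lost without sham + WT replicate 2 (edgeR adjusted p = 0.117) or replicate 3 (0.117), sham + Lrg1-/- replicate 2 (0.0502) or MCAO/R + WT replicate 1 (0.360, with a log2 difference of 0.27). Wwtr1 gave −0.34 (SE 0.11, edgeR adjusted p = 0.0568) and Ccn1, the relative of Ccn2, gave −0.50 (SE 0.24, edgeR adjusted p = 0.182), from 657 to 797 CPM after sham to 501 and 551 CPM after MCAO/R. Tead1 (0.15), Amotl2 (0.16) and Lats2 (0.04) were not called.

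In Lrg1-/- endothelial cells, 0 of the 6 members tested were called after MCAO/R by edgeR (against 19.8% of all genes), with 2 at an unadjusted p below 0.05 and 1 called by DESeq2. Amotl2 gave −0.40 (SE 0.14, edgeR adjusted p = 0.0586), with 65.8 to 101 CPM after sham and 59.2 to 67.0 CPM after MCAO/R, and Yap1 gave 0.34 (SE 0.13, edgeR adjusted p = 0.0754). The MCAO/R libraries of these comparisons are those that chose Ccn2. Endothelial cells of the MCAO/R libraries fell mostly into another cluster than those of the sham libraries. One of 2 endothelial clusters held 11.8% of these cells in sham + WT and 20.9% in sham + Lrg1-/-, but 95.7% in MCAO/R + WT and 94.0% in MCAO/R + Lrg1-/-.

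Smooth muscle cells of WT mice had higher Ccn2 after MCAO/R as well. Its level was 180, 223 and 254 CPM in sham + WT and 1241 and 1065 CPM in MCAO/R + WT libraries, and it rose by 2.39 on the log2 scale (SE 0.33, edgeR adjusted p = 0.000270), or 5.25-fold. The call held without any 1 library, with log2 differences of 2.27 to 2.51. The MCAO/R + WT mice are those whose endothelial cells chose Ccn2, so this result is not independent of that choice. In the same cells Ccn1 rose by 1.07 (SE 0.27, edgeR adjusted p = 0.0186), from 331 to 475 CPM to 738 and 912 CPM, and Lats2 rose by 0.68 (SE 0.17, edgeR adjusted p = 0.0167), from 54.6 to 80.9 CPM to 110 and 113 CPM. In all, 3 of the 7 measured members were called, against 11.4% of all genes, and all 3 are target genes. Amotl2 gave 0.63 (SE 0.23, edgeR adjusted p = 0.0899), and Yap1, Wwtr1 and Tead1 gave 0.14, 0.32 and 0.38 and were not called.

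Ccn1 in WT smooth muscle cells was not called without sham + WT replicate 1 (edgeR adjusted p = 0.0783) or replicate 2 (0.0705), or MCAO/R + WT replicate 1 (0.155). Lats2 was not called without sham + WT replicate 1 (edgeR adjusted p = 0.0610) or MCAO/R + WT replicate 1 (0.0947) or replicate 2 (0.0983).

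In smooth muscle cells of Lrg1-/- mice, 0 of the 7 measured members were called after MCAO/R by edgeR and 0 by DESeq2 (against 11.6% of all genes by edgeR), with 5 at an unadjusted p below 0.05. Ccn2 was at 502, 283 and 132 CPM after MCAO/R and 180, 205 and 163 CPM after sham. These ranges overlapped, and the log2 difference was 0.67 (SE 0.31, edgeR adjusted p = 0.184). Ccn1 gave 0.76 (SE 0.26, edgeR adjusted p = 0.0739), with 169 to 402 CPM against 147 to 216 CPM. Whether the response differed between the genotypes was not tested.

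Pericytes, the mural cells of the capillaries, gave another result in WT mice. Among the 7 measured members 1 was called after MCAO/R, against 8.02% of 11203 genes, and this was Ccn1, which fell by 0.79 on the log2 scale (SE 0.21, edgeR adjusted p = 0.0168). Its levels were 274, 239 and 294 CPM after sham and 219 and 99.8 CPM after MCAO/R. Ccn2 was at 69.4, 97.7 and 66.9 CPM after sham and 63.9 and 50.5 CPM after MCAO/R, a log2 difference of −0.47 (SE 0.19) that was not called (edgeR adjusted p = 0.143). The call of Ccn1 was lost without MCAO/R + WT replicate 2 (log2 difference −0.30, edgeR adjusted p = 0.387), without sham + WT replicate 2 (0.0857) or replicate 3 (0.108), and with DESeq2 (DESeq2 adjusted p = 0.723). The 9 pericyte markers summed to 28099 to 28944 CPM in these cells after sham and 20907 and 22661 CPM after MCAO/R, and the 9 endothelial markers to 746 to 853 and to 1154 and 1328 CPM. Their part in this and the other decreases in pericytes was not tested.

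In astrocytes, 0 of the 7 measured members were called after MCAO/R by edgeR or DESeq2 in either genotype, against 2.32% of all genes in WT and 0.689% in Lrg1-/- mice. In WT mice 3 members had an unadjusted p below 0.05, and in Lrg1-/- mice 0 had. Ccn2 averaged 5.19 ± 6.07 CPM (SD, n = 3) in sham + WT and 33.2 ± 33.1 CPM (SD, n = 2) in MCAO/R + WT, where the 2 libraries stood at 56.6 and 9.83 CPM. The spread within each group was about as large as its mean, and the log2 difference of 2.70 (SE 0.95) did not pass the test (edgeR adjusted p = 0.162). The astrocyte sums of Lrg1-/- libraries held 382 to 1491 CPM of the 8 smooth muscle markers against 93.5 to 241 CPM in WT libraries, and the part of that RNA in the Ccn2 values was not tested.

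**Figure D4:**
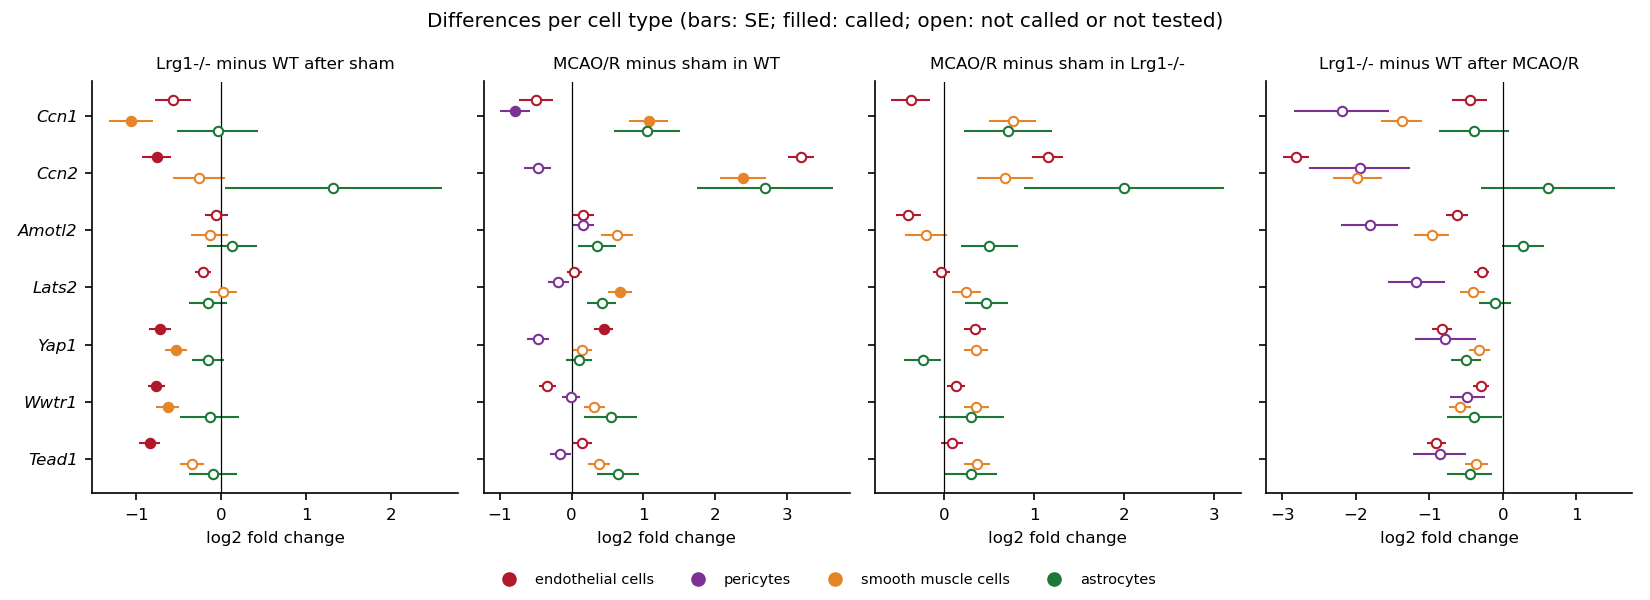
Log2 fold changes of the 7 measured members (rows) in the 4 comparisons (panels, each with its own horizontal axis), with colors for cell types and bars for standard errors. Filled points were called and open points were not called or, for Lrg1-/- against WT after MCAO/R and for Ccn2 in endothelial cells after MCAO/R, not tested. Ccn2 lies farthest from 0 in endothelial cells, at 3.20 in WT mice after MCAO/R and −2.81 between the genotypes after MCAO/R.

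Between the genotypes after MCAO/R, the comparison that chose Ccn2, its endothelial level was 44.3, 61.3 and 61.9 CPM in Lrg1-/- libraries and 374 and 416 CPM in WT libraries, a log2 difference of −2.81 (SE 0.18) or 7.02-fold lower. All 7 measured members, Ccn2 included, were lower in every Lrg1-/- library than in every WT library, where 25.2% of all genes were. The members were chosen with earlier results of these data known, so this count is a description and no test. After Ccn2 came Tead1 (−0.90), Yap1 (−0.83), Amotl2 (−0.62), Ccn1 (−0.45), Wwtr1 (−0.30) and Lats2 (−0.29). Tead1 measured 84.5, 118 and 100 CPM against 185 and 195 CPM, and Yap1 measured 69.8, 80.2 and 90.7 CPM against 159 and 126 CPM. For Tead1 and Yap1 the difference after MCAO/R was close to that after sham (−0.84 and −0.72), whereas for Ccn2 it was −2.81 against −0.76 and for Amotl2 −0.62 against −0.06. For Wwtr1 it was smaller after MCAO/R, at −0.30 against −0.76. Ccn1 gave −0.45 against −0.57 and Lats2 −0.29 against −0.21. These 2 comparisons share no library, and the change between them was not tested.

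In smooth muscle cells, 6 of the 7 measured members were lower in every Lrg1-/- library after MCAO/R, where 20% of all genes were. Ccn2 was at 502, 283 and 132 CPM against 1241 and 1065 CPM (log2 difference −1.98, SE 0.33) and Ccn1 at 395, 402 and 169 CPM against 912 and 738 CPM (−1.37, SE 0.28). Yap1 was the exception, with 71.0 to 92.0 CPM against 87.9 and 110 CPM. In astrocytes, 1 of the 7 measured members, Yap1, was lower in every Lrg1-/- library (49.7 to 68.9 against 83.2 and 85.5 CPM), where 18.1% of all genes were, and Ccn2 gave 0.62 (SE 0.91) with overlapping libraries. In pericytes a single Lrg1-/- library of 50 cells gave 14.6 CPM of Ccn2 against 63.9 and 50.5 CPM in WT. This value rests on very few counts, from a sum of 205412 UMIs. The same sum held 9887 CPM of erythroid markers, against 16.9 and 28.6 CPM in MCAO/R + WT pericytes. The length classes of endothelial genes ranged from 0.17 for up to 10 kb to −0.16 above 100 kb in this comparison, and erythroid markers summed to 18264 to 20274 CPM in endothelial cells of MCAO/R + Lrg1-/- and 388 to 1555 CPM in those of MCAO/R + WT. The part of gene length, of RNA of other cells and of the lower smooth muscle markers in these differences was not tested.

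The share of endothelial cells with Ccn2 was counted as well. A Ccn2 UMI was found in 19.5% to 22.0% of endothelial cells in sham + WT, 12.97% to 17.4% in sham + Lrg1-/-, 58.4% and 59.9% in MCAO/R + WT and 25.9% to 27.2% in MCAO/R + Lrg1-/- libraries. Median depths were 6417 to 12861 UMIs per cell. With each cell thinned to 1000 UMIs the shares were 3.02% to 4.62%, 2.25% to 3.28%, 23.9% and 26.7%, and 4.12% to 6.83%. Microglia, a type that should lack Ccn2, gave 0.708% to 1.73% in sham + WT, 0.761% to 1.49% in sham + Lrg1-/-, 4.25% and 6.49% in MCAO/R + WT and 0.922% to 1.59% in MCAO/R + Lrg1-/- libraries, at median depths of 3237 to 10209 UMIs, and at most 0.721% after thinning. The endothelial shares lay above this background in every library.

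Endothelial cells were also split into 12 sub-clusters, with the 8 genes left out of the genes used for clustering. Of these, 1 sub-cluster each was named arterial-like, venous-like and choroid plexus-like, and 9 stay unnamed. The capillary list was the best of the 4 subtype lists in 6 of these 9, and in 4 of the 6 it also stood higher than in the other endothelial cells. These 4 are called capillary-marker cells here, a line drawn after the sub-clusters were seen. The other 2 of the 6, of 1897 and 790 cells, were led by hemoglobin and by immune genes such as Cd74. In venous-like cells Ccn2 was at 12.8 to 17.2 CPM in sham + WT, 9.26 to 14.6 CPM in sham + Lrg1-/-, 252 and 311 CPM in MCAO/R + WT and 33.7 to 49.3 CPM in MCAO/R + Lrg1-/- libraries, and the 2 MCAO/R groups did not overlap. In capillary-marker cells it was at 52.9 to 65.8, 26.1 to 70.1, 572 and 592, and 65.9 to 138 CPM, and over all 6 sub-clusters it was at 52.0 to 63.7, 26.0 to 47.8, 561 and 585, and 57.3 to 81.0 CPM. In arterial-like cells 1 MCAO/R + Lrg1-/- library of 72 such cells (162 CPM) lay inside the range of MCAO/R + WT (107 and 181 CPM), and the other 2 stood at 20.5 and 75.8 CPM. Between the 2 sham groups, the Ccn2 values overlapped in venous-like and in capillary-marker cells but not over all 6 sub-clusters. These are descriptions, and the difference between sub-clusters was not tested.

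Shares of these cells depended on where the line was drawn. Capillary-marker cells held 51.4% to 54.9% of endothelial cells in sham + WT, 36.1% to 42.5% in sham + Lrg1-/-, 43.9% and 57.6% in MCAO/R + WT and 12.3% to 28.5% in MCAO/R + Lrg1-/- libraries. All 6 sub-clusters in which the capillary list was best held 57.8% to 62.0%, 55.8% to 59.8%, 52.5% and 70.6%, and 44.5% to 59.6%, so that the groups lay much closer together. One of the 4 capillary-marker sub-clusters, of 708 cells, had Ccn2 among its 10 leading genes, and 551 of its cells came from the 2 MCAO/R + WT libraries. Wwtr1 was lower in sham + Lrg1-/- than in sham + WT libraries within arterial-like (354 to 423 against 713 to 822 CPM), venous-like (358 to 421 against 614 to 691 CPM) and capillary-marker cells (387 to 460 against 637 to 641 CPM), with no overlap in any of the 3. Without the sub-cluster of 268 cells that pericyte genes led, the sham difference of Ccn2 was −0.73 (edgeR adjusted p = 0.0218).

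**Figure D5:**
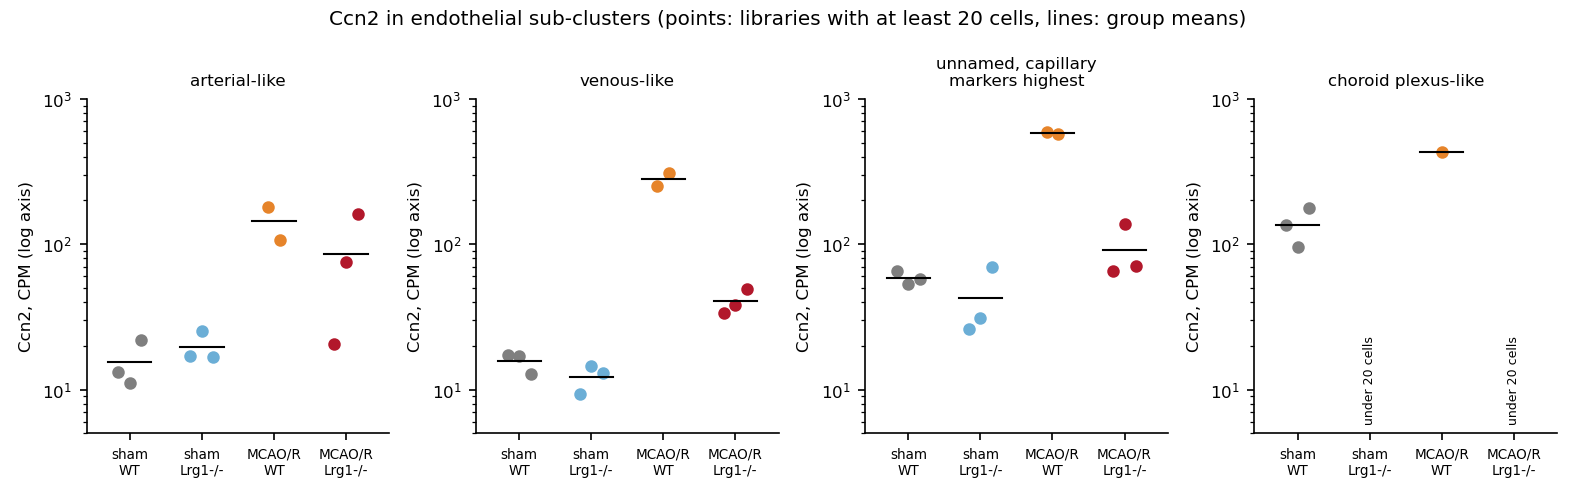
CPM of Ccn2 on a log axis in 4 classes of endothelial sub-clusters, 1 point per library with at least 20 cells and a line at the group mean. Venous-like and capillary-marker cells show MCAO/R + WT (252 to 592 CPM) above MCAO/R + Lrg1-/- (33.7 to 138 CPM), and in arterial-like cells these groups overlap.

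The genes whose endothelial levels were most like those of Ccn2, by Pearson's r of log2(CPM + 1) over the 11 libraries, were Stt3b (r = 0.990), a catalytic subunit of the enzyme that adds N-glycans, Zmiz1 (0.981), a transcriptional co-regulator, Slc41a2 (0.977), a magnesium transporter, Irak3 (0.977), an inhibitor of Toll-like receptor signaling, and Ccdc88a (0.976), an actin-binding protein. Stt3b was at 112 to 115 CPM in sham + WT, 81.9 to 85.8 in sham + Lrg1-/-, 328 and 353 in MCAO/R + WT and 124 to 147 in MCAO/R + Lrg1-/- libraries. Of the members, Yap1 came nearest to Ccn2 (r = 0.813, rank 649 of 16632 genes), followed by Tead1 (0.621), Lats2 (0.483), Amotl2 (0.393), Wwtr1 (0.237) and Ccn1 (0.0423). The 11 points share groups and sequencing depth, and these correlations are a description.

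A wider list held 22 YAP/TAZ target genes, among them the members Ccn1, Ccn2, Ankrd1, Amotl2 and Lats2. In endothelial cells after sham, 21 were tested and 2 rose and 4 fell in Lrg1-/- mice, where 7.08% of all genes rose and 9.61% fell, and the median log2 difference was −0.10 against 0.01 over all genes. The largest decreases were in Rbms3, an RNA-binding protein (−1.51, edgeR adjusted p = 0.000273), and Igfbp3, a binding protein of insulin-like growth factors (−1.19, edgeR adjusted p = 0.0348), and the largest rises in Arhgef17, a guanine nucleotide exchange factor (1.21), and the receptor tyrosine kinase Axl (1.19), both with an edgeR adjusted p of 0.0142 and under 7 CPM. After MCAO/R in WT mice, 6 of 20 target genes other than Ccn2 rose and 2 fell (8.87% and 9.79% of all genes), with a median of 0.26 against 0.02 over all genes. Nt5e, the ectonucleotidase CD73, rose by 2.75 (edgeR adjusted p = 0.00438), Igfbp3 rose from 60.8 to 275 CPM (2.17, edgeR adjusted p = 0.00130), and Tgfb2, a TGF-beta ligand, fell from 290 to 77.9 CPM (−1.90, edgeR adjusted p = 9.59e-05).

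After MCAO/R in Lrg1-/- endothelial cells, 5 of 20 rose and 2 fell (10.9% and 8.93% of all genes), with a median of 0.09. Igfbp3 rose from 26.5 to 210 CPM (2.99, edgeR adjusted p = 0.000355) and Tgfb2 fell from 279 to 71.1 CPM (−1.99, edgeR adjusted p = 0.000126), so that these 2 targets passed in the same direction in both genotypes. Nuak2, a kinase, rose by 1.30 (edgeR adjusted p = 0.0229). Of 20 targets in smooth muscle cells, 6 rose and 2 fell in WT mice (5.78% and 5.65% of all genes). The median was 0.36 against 0.00 over all genes. The members Ccn2, Ccn1 and Lats2, reported above, are among the 6, and Nuak2 rose by 2.32 (edgeR adjusted p = 0.00245). In pericytes of WT mice 1 of 19 rose and 7 fell (4.68% and 3.34% of all genes), with Fjx1 (−1.35, edgeR adjusted p = 0.00208) and the stress gene Gadd45a (−1.33, edgeR adjusted p = 0.000921) in front. After sham, smooth muscle cells had 3 of 20 targets that fell and none that rose in Lrg1-/- mice (5.97% and 4.98% of all genes), with 9 at an unadjusted p below 0.05, and after MCAO/R in Lrg1-/- mice 2 rose and 1 fell (6.41% and 5.15%). In astrocytes 1 of 17 rose and 2 fell after sham (2.64% and 2.01%). After MCAO/R edgeR called 0 there, against 2.32% of all genes in WT and 0.689% in Lrg1-/- mice. At an unadjusted p below 0.05 there were 6 in WT and 2 in Lrg1-/- mice. Between the genotypes after MCAO/R, the comparison that chose Ccn2, 15 of 21 targets lay below 0 in endothelial cells (median −0.37 against 0.02 over all genes), 16 of 20 in smooth muscle cells (−0.34 against 0.01), 13 of 19 in pericytes (−0.32 against −0.06) and 7 of 17 in astrocytes (0.09 against −0.02), given without a test. These counts include Ccn2, which this comparison chose, and the members Ccn1, Amotl2 and Lats2. The lists were chosen with earlier results of these libraries known.

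A list of 23 genes of the Hippo pathway and its nuclear partners includes the members Yap1, Wwtr1, Tead1, Amotl2 and Lats2. Of the 23, 3 rose and 7 fell in Lrg1-/- endothelial cells after sham, against 7.08% and 9.61% of all genes, with a median of −0.10. Yap1, Wwtr1 and Tead1, reported above, are among the 7 that fell. The part of gene length in these decreases was not tested. Vgll4, a TEAD-binding competitor of YAP, fell from 194 to 96.9 CPM (−0.999, edgeR adjusted p = 0.000183), and Wwc1, an upstream activator of the kinases, rose from 1.82 to 6.23 CPM (1.74, edgeR adjusted p = 0.00260). After MCAO/R 4 rose and 1 fell in WT endothelial cells (8.87% and 9.79% of all genes) and 3 rose and 2 fell in Lrg1-/- endothelial cells (10.9% and 8.93%). The TEAD factor Tead4 rose in both, from 39.4 to 84.0 CPM in WT mice (1.09, edgeR adjusted p = 0.000110) and from 29.5 to 50.1 CPM in Lrg1-/- mice (0.78, edgeR adjusted p = 0.00151), while the angiomotin Amot fell in both, by 0.51 (edgeR adjusted p = 0.0157) and 0.88 (edgeR adjusted p = 0.000764). Smooth muscle cells had 3 of 21 that fell after sham (5.97% of all genes), among them Wwtr1 and the kinase Stk3, and the scaffold Sav1 rose after MCAO/R in WT (0.61, edgeR adjusted p = 0.0345), where 2 of 21 rose (5.78% of all genes), and in Lrg1-/- mice (0.69, edgeR adjusted p = 0.0161), where it was the 1 that rose (6.41%). After MCAO/R in WT mice 1 of 22 fell in pericytes (3.34% of all genes), Amotl1 (−0.51, edgeR adjusted p = 0.0223), and 1 of 19 rose in astrocytes (1.51% of all genes), Tead3 (1.29, edgeR adjusted p = 0.0339).

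In WT smooth muscle cells 4 of the 5 tested CCN genes rose after MCAO/R and 0 fell, against 5.78% and 5.65% of all genes. Among the 4 were the members Ccn1 and Ccn2, reported above. Ccn5, which is known for its effect on smooth muscle growth, rose from 4.78 to 26.2 CPM (2.51, edgeR adjusted p = 0.0216). In Lrg1-/- mice edgeR called 0 of the 5, with 3 at an unadjusted p below 0.05. Of the 4 CCN genes other than Ccn2 in endothelial cells, 1 fell in WT mice (9.79% of all genes) and 1 rose and 1 fell in Lrg1-/- mice (10.9% and 8.93%). Ccn3 fell in both genotypes, from 13.9 to 4.79 CPM in WT (−1.53, edgeR adjusted p = 0.00223) and from 12.6 to 2.39 CPM in Lrg1-/- mice (−2.47, edgeR adjusted p = 0.000311). After sham, 2 of 5 fell in Lrg1-/- endothelial cells (9.61% of all genes) and 2 of 5 in smooth muscle cells (5.97%). Beside Ccn2 in endothelial cells this was Ccn4, at low levels, from 3.24 to 1.28 CPM (−1.30, edgeR adjusted p = 0.0132). Beside Ccn1 in smooth muscle cells it was Ccn3, from 73.3 to 32.5 CPM (−1.20, edgeR adjusted p = 0.0148). In pericytes 1 of 2 fell, Ccn1 (3.34% of all genes), and in astrocytes edgeR called 0 of 2 in each comparison, where 0.689% to 4.64% of all genes were called, with both at an unadjusted p below 0.05 after MCAO/R in WT mice and neither in the other comparisons.

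Immediate early genes, which cell isolation can induce and to which Ccn1 is often counted, were read beside these results. In endothelial cells 3 of 10 fell after MCAO/R in WT mice and 10 of 10 in Lrg1-/- mice, where 9.79% and 8.93% of all genes fell, with medians of −0.36 and −0.80 and no rise among them. Smooth muscle cells had 2 that rose in WT mice (5.78% of all genes) and 3 that fell in Lrg1-/- mice (5.15%). After sham, 1 rose and 2 fell in Lrg1-/- cells of both types, against 7.08% and 9.61% of all genes in endothelial and 4.98% and 5.97% in smooth muscle cells. In pericytes 1 of 10 fell after MCAO/R (3.34% of all genes), and in astrocytes 2 of 10 rose after sham (2.64%). Between the genotypes after MCAO/R, 9 of 10 lay below 0 in endothelial cells (median −0.60 against 0.02 over all genes). In smooth muscle cells 10 of 10 did (−0.38 against 0.01). In pericytes 8 of 10 did (−0.45 against −0.06) and in astrocytes 1 of 10 (0.38 against −0.02), given without a test. The part of immediate early genes in the levels of Ccn1 and Ccn2 was not tested.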

How the data were processed

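Single-cell libraries were made from right brain tissue of 11 mice, 1 per library, with a droplet 3′ assay. The deposited matrices hold raw UMI counts per gene and cell, which the authors made with Cell Ranger on mm10. The headers of all 11 matrices name version 7.0.1, another than the study's methods do, and whether intronic reads were counted is not given in the sources used here. The groups were taken from the labels. Nothing in the labels ties replicate numbers to litters, batches or days.

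Cells with over 500 genes, over 1000 UMIs and under 25% mitochondrial UMIs were kept. Doublet scores were computed per library by simulating doublets, and the top 6% were removed. Cells were clustered on 2000 variable genes and 15 principal components, with 3 neighbors per mouse and a resolution of 0.3, and clusters were named from marker lists where at least 3 markers were 2-fold higher. This naming rule was set after the clusters were seen. In all 43601 cells stayed unnamed. Some names and shares may differ from those of the study, since cell types were rebuilt. Endothelial cells were clustered again at a resolution of 1 on 1000 variable genes.

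Raw UMI counts were summed per library and cell type where a library held at least 20 cells. All libraries of a cell type entered 1 fit with edgeR's quasi-likelihood test and TMM factors, and p-values were adjusted over all genes tested. CPM in the 4 cell types use the TMM factors, whereas levels across all cell types and in sub-clusters are plain CPM. Intervals and floors cover counting error only. P-values measure the spread between mice, with 2 or 3 per group. Shares of all genes refer to calls. No such share is given beside counts at an unadjusted p below 0.05, so those counts have no background. All 8 genes are named. From each list, genes are named only from the 2 largest rises and the 2 largest falls among those called with no overlap between groups. The members and lists were chosen with earlier results of these data known. The lists held YAP/TAZ targets, the Hippo pathway, the CCN family, SRF and MRTF targets, SMAD targets and immediate early genes.

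The scripts were tested on simulated data. Fits were made in R 4.3.3 with edgeR 4.0.16, limma 3.58.1 and DESeq2 1.42.0. Clustering used igraph 0.11.9, pandas 2.3.3, scipy 1.17.1 and numpy 2.4.6 under Python 3.11.15. Alternatives covered size factors, count filters, DESeq2, thinned cells, doublets, mitochondrial limits, clustering, the replicate block and each library left out. The values of 1 gene counted in a list are not reported here.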

Additional observations from a re-analysis of the deposited data

Results flagged for a closer look

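Ccn1 moved in opposite directions in neighboring vessel wall cells of WT mice after MCAO/R, with every MCAO/R library below every sham library in pericytes (log2 difference −0.79) and above it in smooth muscle cells (1.07). Amotl2 in endothelial cells gave 0.16 in WT and −0.40 in Lrg1-/- mice, Yap1 in astrocytes gave 0.10 and −0.24, and Wwtr1 in endothelial cells gave −0.34 and 0.12. None of these 4 differences was tested.

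More Ccn2 UMIs were also found after MCAO/R in WT cell types outside the main comparisons, where the lower of the 2 MCAO/R + WT libraries exceeded the highest sham + WT library. In fibroblasts these values were 789 against 378 CPM, in erythroid cells 24.0 against 8.72 CPM, in macrophages 18.8 against 4.37 CPM, in ependymal cells 18.2 against 10.9 CPM, in microglia 5.60 against 1.72 CPM and in oligodendrocytes 4.94 against 1.48 CPM. Microglia, used above as the background for shares of cells with a Ccn2 UMI, are among these cell types, so that this background was higher in the same libraries. The part of such background in the values of the other types was not tested. Groups of 3 or fewer libraries allowed no search for single outlying samples.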

How the results depend on the processing

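The endothelial difference of Ccn2 between Lrg1-/- and WT mice after MCAO/R ranged from −2.94 to −2.75 over 11 alternatives and from −2.89 to −2.65 without any 1 library. Each cell type gave 7 member tests, or 6 in endothelial cells after MCAO/R, and pericytes entered only MCAO/R in WT mice. Over the cell types, 4.64% to 16.7% of all genes were called after sham. For MCAO/R these shares were 2.32% to 18.7% in WT and 0.689% to 19.8% in Lrg1-/- mice. Summed over the 4 cell types, 7 member tests were called for Lrg1-/- against WT after sham, 5 for MCAO/R in WT and 0 for MCAO/R in Lrg1-/- mice. Leaving out 1 library gave 4 to 8, 2 to 6 and 0 to 2, with 4 without sham + Lrg1-/- replicate 2 for the first, 3, 2 and 3 without sham + WT replicates 1, 2 and 3 for the second, and 1, 2 and 2 without sham + Lrg1-/- replicate 1 and MCAO/R + Lrg1-/- replicates 1 and 5 for the third. With cells thinned to 1000 UMIs the first 2 counts were 4 and 3, without a filter on low counts the last 2 were 8 and 3, and DESeq2 and a limit of 10% mitochondrial UMIs each gave 1 in Lrg1-/- mice. Genes called were 4603, 5622 and 4741, against 905, 2687 and 2186 with thinned cells and 2484 to 5108, 3145 to 6242 and 2668 to 6221 without 1 library. The lowest of these counts were those without sham + WT replicate 3, MCAO/R + WT replicate 1 and MCAO/R + Lrg1-/- replicate 2. Counts also fell by over 1.5 times without sham + WT replicate 2 (2692) or sham + Lrg1-/- replicate 5 (2840) for the first, sham + WT replicate 2 (3734) or replicate 3 (3646) for the second, and sham + Lrg1-/- replicate 2 (2694) for the third. In smooth muscle cells after sham, the call of Ccn1 was lost with doublets kept (edgeR adjusted p = 0.0618), that of Wwtr1 with thinned cells (0.600) and that of Yap1 with thinned cells (0.680) and without balancing over mice (0.0782). For MCAO/R in WT mice, calls were lost for Ccn1 in smooth muscle cells with doublets kept (edgeR adjusted p = 0.102), Lats2 there with doublets kept (0.0511) and thinned cells (0.400), Ccn1 in pericytes with thinned cells (0.0682) and Yap1 in endothelial cells without balancing (0.0525). The cause of these changes was not tested. No result changed direction in any of these alternatives.

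Replicate numbers are shared between groups, but same-numbered libraries correlated between −0.433 and 0.216, so they were not taken as pairs. With the replicate block, 4 member tests and 1663 genes were called after sham and 3476 genes for MCAO/R in WT mice. The calls of Ccn1, Wwtr1 and Yap1 in smooth muscle cells after sham (edgeR adjusted p = 0.212, 0.0902 and 0.102) and of Yap1 in WT endothelial cells after MCAO/R (0.131) were lost with the block. In endothelial cells most libraries correlated best with a library of another number. Leaving out the endothelial sub-cluster led by pericyte genes, chosen after seeing the data, gave the same counts of 7, 5 and 0. Pericytes of sham + Lrg1-/- libraries, 7 to 14 cells each, were too few to be compared.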

Other observations

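Targets of SRF and MRTF, an actin-dependent program that shares some target genes with YAP and TAZ, were counted in each cell type, and no test compared the cell types. In endothelial cells after sham, 5 of 14 rose and 1 fell in Lrg1-/- mice (7.08% and 9.61% of all genes), led by the contractile genes Myl9 (from 27.1 to 112 CPM, log2 difference 2.04, edgeR adjusted p = 0.00169) and Acta2 (from 76.4 to 252 CPM, 1.72, edgeR adjusted p = 0.00471), while the focal adhesion gene Vcl fell (−0.60, edgeR adjusted p = 0.0309). Acta2 is also one of the 8 smooth muscle markers, and these summed to 159 to 174 CPM in sham + WT and 360 to 642 CPM in sham + Lrg1-/- endothelial cells. In smooth muscle cells after sham 0 of 14 rose and 2 fell (4.98% and 5.97% of all genes), the tropomyosin gene Tpm1 (−0.46, edgeR adjusted p = 0.0257) and Vcl, from 1698 to 869 CPM (−0.97, edgeR adjusted p = 0.000449). In pericytes 6 of 13 fell after MCAO/R in WT mice (3.34% of all genes), with Acta2 from 149 to 47.1 CPM (−1.67, edgeR adjusted p = 1.18e-07). In astrocytes 5 of 12 rose after sham (2.64% of all genes), led by Tagln (3.23, edgeR adjusted p = 0.00288). Tagln is a smooth muscle gene, and the 8 smooth muscle markers summed to 93.5 to 241 CPM in astrocytes of sham + WT and 823 to 1491 CPM in those of sham + Lrg1-/- libraries. Their part in this rise was not tested. After MCAO/R 1 of 14 rose and 1 fell in WT endothelial cells (8.87% and 9.79% of all genes) and 2 rose and 3 fell in Lrg1-/- endothelial cells (10.9% and 8.93%). The falls in Lrg1-/- endothelial cells included Myl9 (−1.51, edgeR adjusted p = 0.00781) and Acta2 (−1.46, edgeR adjusted p = 0.0101), and the smooth muscle markers in these cells summed to 112 to 377 CPM after MCAO/R. In smooth muscle cells 3 rose and 2 fell in Lrg1-/- mice (6.41% and 5.15%), while edgeR called 0 of 14 in WT mice, with 5 at an unadjusted p below 0.05.

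SMAD targets, the transcriptional output of TGF-beta and BMP signaling, were called in endothelial cells after MCAO/R, where 1 of 10 rose and 4 fell in WT mice (8.87% and 9.79% of all genes) and 2 rose and 6 fell in Lrg1-/- mice (10.9% and 8.93%). In WT mice Smad6 rose (0.60, edgeR adjusted p = 0.0259), while Pmepa1 (−0.81, edgeR adjusted p = 0.00511) and Skil (−0.58, edgeR adjusted p = 0.00596) fell. In Lrg1-/- mice Smad7 fell from 263 to 135 CPM (−0.96, edgeR adjusted p = 0.000377). In Lrg1-/- mice Id1 also fell, from 1923 to 912 CPM (−1.08, edgeR adjusted p = 0.00115). Its level after sham was already higher in Lrg1-/- than in WT endothelial cells (1923 against 1212 CPM, log2 difference 0.67, edgeR adjusted p = 0.0140). In pericytes 2 of 9 rose in WT mice (4.68% of all genes), Tgfbi (from 25.7 to 207 CPM, 3.02, edgeR adjusted p = 2.61e-10) and Id2 (1.83, edgeR adjusted p = 7.62e-05). In smooth muscle cells 2 rose and 1 fell in WT mice (5.78% and 5.65%) and 2 rose and 2 fell in Lrg1-/- mice (6.41% and 5.15%). After sham 1 of 10 rose and 1 fell in endothelial cells (7.08% and 9.61%) and 1 rose in smooth muscle cells (4.98%), and in astrocytes 1 of 10 rose after MCAO/R in WT mice (1.51%).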
